A study of Mus musculus with 6 samples.

Results

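Type I interferon-stimulated antiviral genes were examined in CD11B+ cells of the injured mouse kidney, as a list of 40 genes chosen by name. All 40 were found by symbol among the 46603 genes of the deposited counts, and all 40 passed the filter on low counts that left 15440 genes to be tested. The cells were taken with anti-CD11b magnetic beads from whole kidneys of male mice aged 10 to 12 weeks, on day 3 after both renal pedicles had been clamped for 28 minutes (bilateral IRI-AKI). Mice carrying PEPCK CRE+; Rosa26-LSL-RARaT403X, here PTEC DN RAR, were compared with mice carrying PEPCK CRE-; Rosa26-LSL-RARaT403X, here Cre– controls, with 3 mice and 1 library per mouse in each group. Both groups therefore hold the allele for a truncated, dominant-negative retinoic acid receptor α and both were injured, so there is no uninjured group. PEPCK-Cre acts in proximal tubular epithelial cells (PTECs), so the genotype is defined in the tubule. The RNA comes from the bead fraction of the same kidney, which also held tubule and endothelial transcripts. The labels do not say whether the mice of the 2 groups were littermates. The comparison asks whether blocking retinoic acid signaling in PTECs goes with a different state of the CD11B+ cells after injury.

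Type I interferons bind the receptor made of Ifnar1 and Ifnar2, whose kinases Jak1 and Tyk2 phosphorylate transcription factors such as Stat2. With Irf9 these form a complex that binds interferon-stimulated response elements (ISRE) in promoters and turns on a shared set of antiviral genes. In macrophages and monocytes the response can start from nucleic acids sensed in the cytosol or the endosome, and some of the induced genes are themselves the sensors, the signal transducers or the brakes of the pathway.

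Promoter sequence is shown first for the 5 members with the largest fall among those with a match to the ISRE core before the transcription start. The core was searched on both strands as GAAA, any 2 bases and GAAA, from 250 bases before to 50 bases after the transcription start listed by RefSeq (GRCm38.p6). Such a window was at hand for 30 of the 40 members, and 16 of them (53.3%) held the core, against 3.99% of 27025 genes. The longer form, in which the core is followed by CT, was in 10 of the 30 (33.3%) and in 0.303% of all genes. The 250 bases before the start follow, 5′ to 3′ on the strand of the gene, with matches to the core in capitals. In Isg15 (chr4:156200819-156201068 on the minus strand) 3 overlapping matches form 1 run, in Ifit1 (chr19:34640639-34640888 on the plus strand) and Ddx60 (chr8:61927837-61928086 on the plus strand) there are 2 separate matches each, and in Trim30a (chr7:104465194-104465443 on the minus strand) and Rsad2 (chr12:26456453-26456702 on the minus strand) there is 1 each.
Isg15: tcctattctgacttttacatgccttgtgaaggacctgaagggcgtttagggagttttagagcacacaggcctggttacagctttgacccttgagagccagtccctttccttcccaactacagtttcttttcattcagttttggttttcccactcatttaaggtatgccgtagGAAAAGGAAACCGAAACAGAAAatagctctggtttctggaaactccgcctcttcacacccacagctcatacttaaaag
Ifit1: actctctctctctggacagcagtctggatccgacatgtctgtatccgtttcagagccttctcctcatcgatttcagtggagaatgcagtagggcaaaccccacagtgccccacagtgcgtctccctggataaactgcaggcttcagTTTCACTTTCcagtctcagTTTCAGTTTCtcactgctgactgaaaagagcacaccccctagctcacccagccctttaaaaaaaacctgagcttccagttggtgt
Trim30a: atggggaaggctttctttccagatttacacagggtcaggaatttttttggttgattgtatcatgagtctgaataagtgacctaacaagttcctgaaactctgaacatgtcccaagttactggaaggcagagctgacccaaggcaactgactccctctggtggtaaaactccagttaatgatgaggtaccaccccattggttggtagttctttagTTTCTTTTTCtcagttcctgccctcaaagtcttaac
Rsad2: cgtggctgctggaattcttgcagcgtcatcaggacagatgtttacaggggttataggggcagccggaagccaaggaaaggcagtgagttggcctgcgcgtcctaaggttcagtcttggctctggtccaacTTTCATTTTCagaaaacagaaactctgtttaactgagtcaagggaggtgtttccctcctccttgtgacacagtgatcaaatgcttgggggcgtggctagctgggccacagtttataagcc
Ddx60: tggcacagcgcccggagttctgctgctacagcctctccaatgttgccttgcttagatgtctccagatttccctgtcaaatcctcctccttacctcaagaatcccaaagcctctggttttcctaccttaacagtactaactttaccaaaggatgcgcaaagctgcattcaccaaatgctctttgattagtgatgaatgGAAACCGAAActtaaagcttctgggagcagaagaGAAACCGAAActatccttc
A match describes the letters of the window and not a bound site. The median log2 fold change between genotypes was -0.70 in the 16 members with the core and -0.70 in the 14 without, and 8 and 9 of them passed the test. Over all genes tested, 17.1% passed as lower. Ddx58 held the core only after the start and is therefore not printed. Members without the core in this window include Oasl2, Cmpk2 and Herc6.

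CPM here are counts on genes relative to the depth of each library, after TMM scaling between libraries, and a gene is said to have fallen or risen only at an adjusted p under 0.05 by the quasi-likelihood test of edgeR over all genes tested. Of the 40 members, 24 fell in PTEC DN RAR mice (60.0%, against 17.1% of all genes tested) and 0 rose (23.6% of all genes). At an unadjusted p under 0.05 by the same test, 30 members were lower and 0 higher, against 22% and 28.1% of all genes. All 40 log2 fold changes were negative, as were 47.3% over all genes, and their median was -0.70 with a range from -1.18 to -0.09, against a median of 0.04 over all genes. At least 2-fold lower were 4 members, Isg15, Oasl2, Rtp4 and Ifit1, against 2.14% of all genes. In 25 members (62.5%) every PTEC DN RAR library lay below every Cre– control library, which was so for 24.2% of all genes. The 24 that fell had standard errors from 0.10 to 0.32 on the log2 scale, and the 16 others from 0.15 to 0.44. In bulk RNA, fewer cells of an expressing type and less RNA per cell cannot be told apart.

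**Figure D1:**
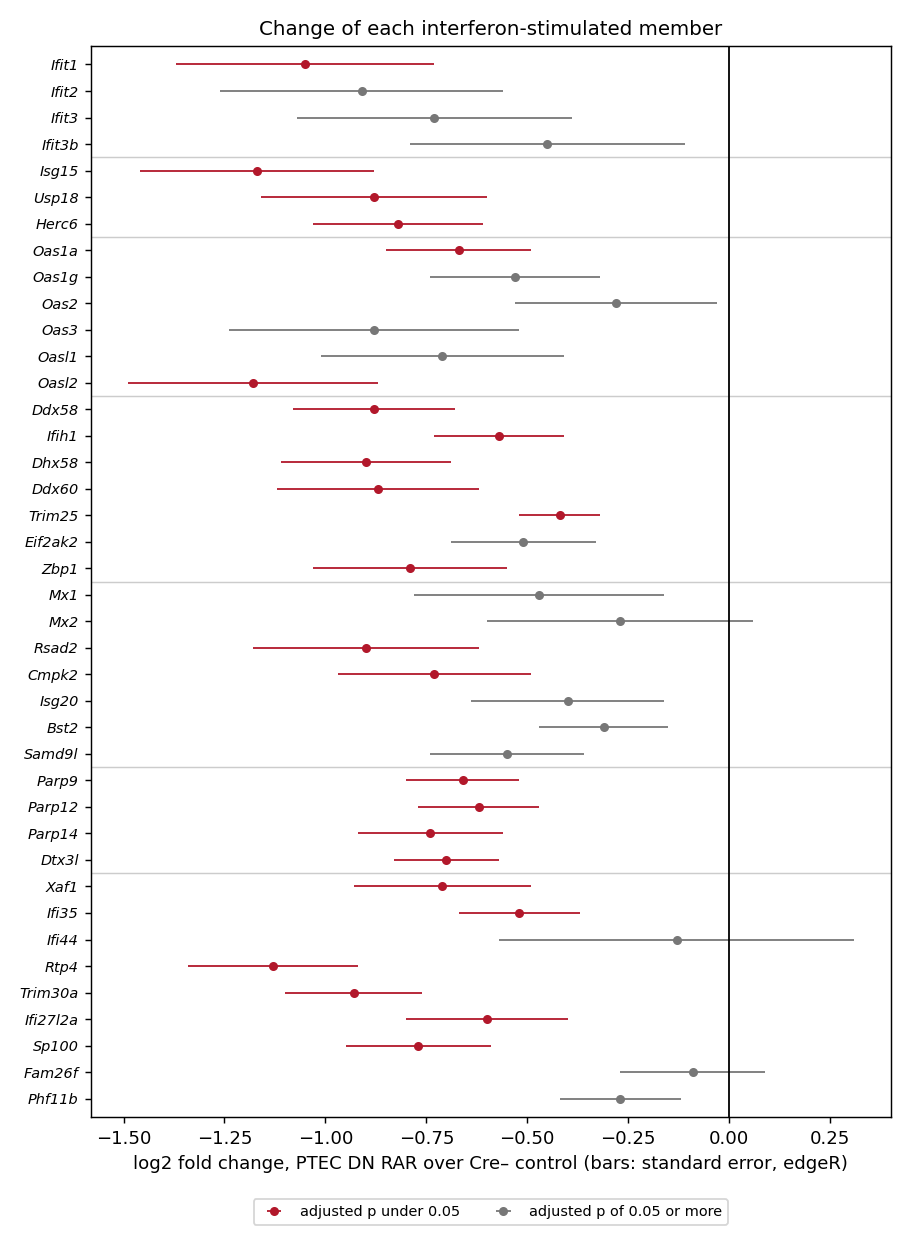
Log2 fold change of each of the 40 members for PTEC DN RAR over Cre– controls (n = 3 mice each), grouped by role, with points for the estimate and bars for its standard error from edgeR. All 40 points lie left of 0, and the 24 in red are those at an adjusted p under 0.05.

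The libraries held 29318041 to 46517005 counts on genes, so 3 reads stood for 0.0636 to 0.101 CPM, and the members together took 0.476% to 0.618% of all counts in the 3 control libraries and 0.241% to 0.413% in the 3 others. The CD11B label was matched by Itgam, the gene for CD11B, at 1740, 1960 and 1990 CPM against 1370, 1300 and 980 CPM, by the macrophage receptor gene Csf1r at 3590, 3290 and 3340 CPM against 3520, 3470 and 3100 CPM and by Lyz2 at 12700, 11700 and 14000 CPM against 8300, 5960 and 8980 CPM. Of 6 genes listed to check that label, 4 fell (Itgam, Lyz2, Cd68 and Fcgr3), where 17.1% of all genes tested did. All 6 log2 fold changes were negative, with a median of -0.49. The share of mitochondrial transcripts was 5.03% to 8.77% among Cre– controls against 10.4% to 12.1% among PTEC DN RAR libraries. Tubule and endothelial transcripts moved with genotype, with all 15 proximal tubule markers, 6 of 6 of thick ascending limb and 7 of 7 of endothelium higher in PTEC DN RAR mice. Over all genes tested, 23.6% rose. The summed level of the proximal tubule markers was 1040 to 1240 CPM in Cre– controls and 2560 to 3730 CPM in PTEC DN RAR mice. A set of 28 pan-leukocyte genes, of which 27 were tested, differed by -0.19 in mean log2 CPM. When libraries were scaled on those genes the median change over all genes was 0.22 in place of 0.04 (log2), that of the members was -0.49, and 7 members fell in place of 24, against 5.11% of all genes. These 7 were Isg15, Oasl2, Ddx58, Dhx58, Dtx3l, Rtp4 and Trim30a. All members but Ifi44 and Fam26f kept a negative log2 fold change under that scaling.

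The mean log2 CPM over the 40 members was 6.84, 6.63 and 6.33 in Cre– control replicates 1, 2 and 3 and 5.39, 6.05 and 6.25 in PTEC DN RAR replicates 1, 2 and 3. It averaged 6.60 ± 0.26 and 5.90 ± 0.45 (SD, n = 3 each), a difference of -0.70, and the gap between the lowest control and the highest PTEC DN RAR library was narrow. PTEC DN RAR replicate 1 stood lowest of the 6 libraries in 38 of 40 members, whereas it was lowest in 12.2% of all genes. Cre– control replicate 1 was the highest of the 6 in 31 members, against 16.2% of all genes. Within the Cre– controls, replicate 3 was lowest in 36 members, against 26.3% of all genes. The order of the libraries was thus shared by most members within each genotype. From PTEC DN RAR replicate 1 to replicate 3 the median difference was 0.86 on the log2 scale over members, positive in 40 of 40, and 0.00 over all genes. Between Cre– control replicates 1 and 3 it was 0.52, with 37 of 40 positive, against 0.02 over all genes. Comparing PTEC DN RAR replicate 3 with Cre– control replicate 3 the median was -0.12 and 14 members were higher in the PTEC DN RAR library. The spread within genotypes, as the SD of log2 CPM, had a median of 0.36 over members and of 0.13 over the 7787 genes with a mean CPM between those of the lowest and the highest member. These counts are descriptions of 6 libraries, and the members are not independent of each other.

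**Figure D2:**
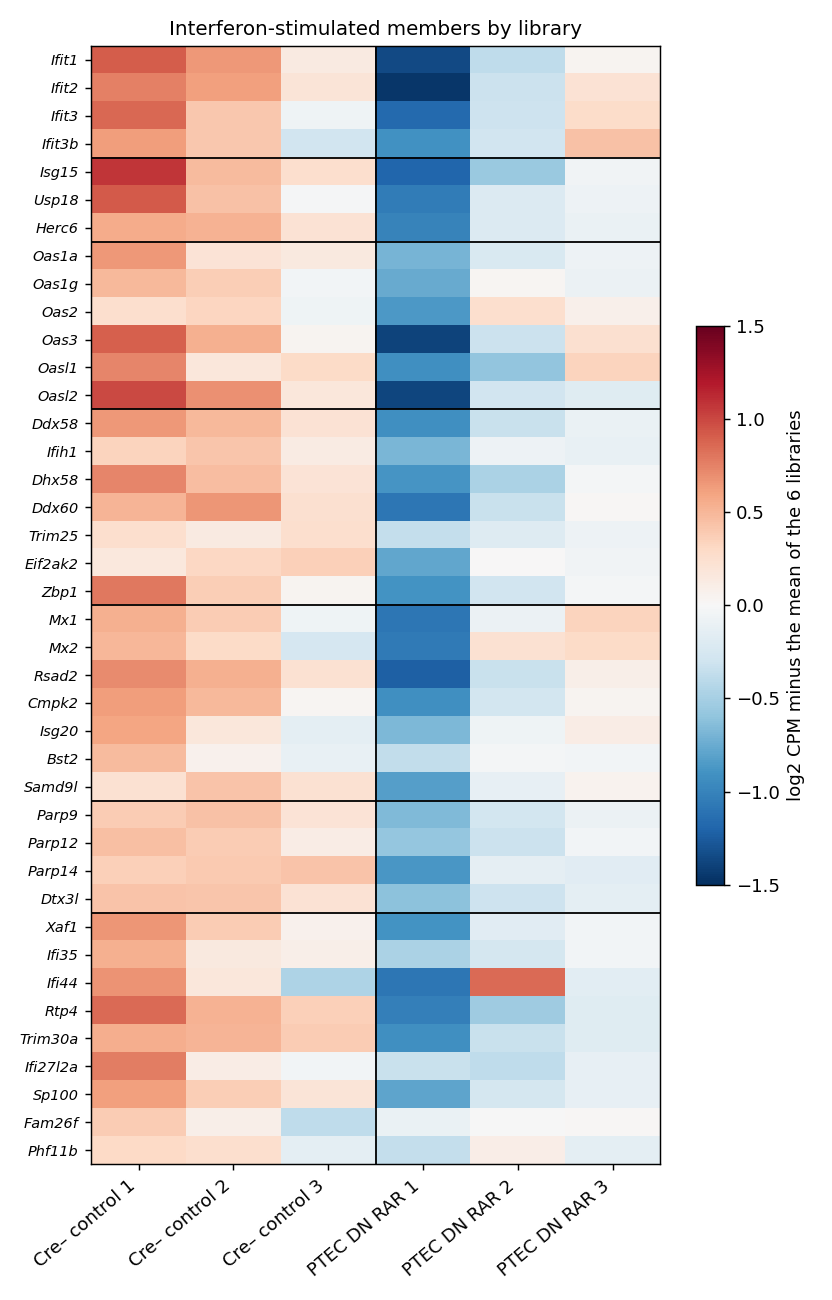
Log2 CPM of each member in each of the 6 libraries minus the mean of that member over the 6, in columns by library and rows by member, with black lines between role groups and between genotypes. PTEC DN RAR replicate 1 is the lowest library in 38 of 40 rows, and Cre– control replicate 1 the highest in 31.

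The IFIT genes encode tetratricopeptide repeat proteins that bind viral RNA and lie next to each other on chromosome 19. Ifit1 (ENSMUSG00000034459, chromosome 19 from 34640871 to 34650009), which recognizes RNA with an unmethylated cap, measured 67.2, 56.2 and 39.5 CPM in Cre– controls and 14.1, 27.6 and 37.1 CPM in PTEC DN RAR mice. It fell, with a change of -1.05 ± 0.32 on the log2 scale (SE, adjusted p = 0.0293 by edgeR). The highest PTEC DN RAR library was just below the lowest control. Over the 13 alternative fits its adjusted p ranged from 0.00307 to 0.0823, and the call was lost without Cre– control replicate 1 or 2 or PTEC DN RAR replicate 2. Ifit2 measured 267, 242 and 182 CPM in Cre– controls and 57.9, 127 and 184 CPM in PTEC DN RAR mice, with overlap between PTEC DN RAR replicate 3 and Cre– control replicate 3 and a change of -0.91 ± 0.35 on the log2 scale (SE, adjusted p = 0.0645 by edgeR). Ifit3 and Ifit3b are near copies, and 51.2% and 45.0% of the 50-base stretches of their transcripts also occur in another gene, mostly each other. Reads aligned to more than 1 place were not counted, so reads from those stretches may be missing. Their log2 fold changes were -0.73 and -0.45 and neither passed (adjusted p = 0.115 and 0.315 by edgeR). Without PTEC DN RAR replicate 3 all 3 of Ifit2, Ifit3 and Ifit3b passed, at adjusted p values of 0.0463 or less by edgeR.

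The 3 genes of ISG15 conjugation all fell, where 17.1% of all genes tested did. Isg15 (ENSMUSG00000035692, chromosome 4 from 156199424 to 156200818), the ubiquitin-like protein that is attached to other proteins and also secreted, measured 129, 85.4 and 72.8 CPM in Cre– controls and 26.8, 41.7 and 58.8 CPM in PTEC DN RAR mice. Group means were 95.8 ± 29.6 CPM for Cre– controls and 42.4 ± 16.1 CPM for PTEC DN RAR (SD over 3 mice each). Its change of -1.17 ± 0.29 on the log2 scale (SE, adjusted p = 0.0127 by edgeR) passed in each of the 13 alternative fits, with adjusted p from 0.000131 to 0.0377. Usp18 encodes the protease that removes Isg15 and also dampens the interferon receptor, and measured 82.5, 59 and 42.9 CPM in Cre– controls and 21.1, 37.7 and 41.2 CPM in PTEC DN RAR mice. Its change was -0.88 ± 0.28 on the log2 scale (SE, adjusted p = 0.0343 by edgeR). PTEC DN RAR replicate 3 lay just below Cre– control replicate 3. The call was lost without any 1 of Cre– control replicates 1 and 2 and PTEC DN RAR replicates 1 and 2. Over the 13 alternative fits the adjusted p of Usp18 ranged from 0.00372 to 0.103. With each mouse left out in turn its log2 fold change stayed negative, from -1.13 to -0.62. Herc6, the ligase that joins Isg15 to its targets in the mouse, measured 48.2, 47.3 and 38.2 CPM in Cre– controls and 16.4, 28.5 and 30.7 CPM in PTEC DN RAR mice, a change of -0.82 ± 0.21 on the log2 scale (SE, adjusted p = 0.0157 by edgeR), and passed with each mouse left out. Part of its transcript overlaps the gene model Gm45193 on the same strand, where reads may have been left out as ambiguous.

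OAS enzymes make 2′-5′ linked oligoadenylates that activate RNase L, which cuts RNA. Of the 6 family members measured, 2 fell, where 17.1% of all genes tested did. Oasl2 (ENSMUSG00000029561, chromosome 5 from 114896936 to 114912234) had the largest fall of all 40 members, with 481, 389 and 272 CPM in Cre– controls and 93.4, 198 and 214 CPM in PTEC DN RAR mice. The means were 381 ± 105 CPM for Cre– controls and 168 ± 65.4 CPM for PTEC DN RAR (SD over 3 mice each), a change of -1.18 ± 0.31 on the log2 scale (SE, adjusted p = 0.0158 by edgeR), and it passed in each alternative fit. Oas1a measured 159, 117 and 112 CPM in Cre– controls and 62.3, 86.3 and 96 CPM in PTEC DN RAR mice and fell by 0.67 on the log2 scale (standard error 0.18, adjusted p = 0.0193 by edgeR), a call lost without PTEC DN RAR replicate 1 (range 0.00184 to 0.114). Oas1a and Oas1g share 57.6% and 54.7% of their 50-base stretches with another gene, mostly each other, so their counts too are uncertain. Oas1g, Oas2, Oas3 and Oasl1 had log2 fold changes of -0.53, -0.28, -0.88 and -0.71 with adjusted p values of 0.0751, 0.4, 0.0836 and 0.0856 by edgeR. Oas3 measured 289, 224 and 159 CPM against 59.3, 124 and 183 CPM, with PTEC DN RAR replicate 3 above Cre– control replicate 3. Oas3 and Oasl1 passed without PTEC DN RAR replicate 3, and Oas1g without Cre– control replicate 3. Oasl1, which represses translation of Irf7, measured 77.6, 52.2 and 56.6 CPM in Cre– controls and 24.7, 30.8 and 58.5 CPM in PTEC DN RAR mice, with PTEC DN RAR replicate 3 inside the control range.

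In all 7 genes for sensors of nucleic acids and their regulators every PTEC DN RAR library lay below every control, and 6 of the 7 fell. Over all genes tested the shares were 24.2% and 17.1%. Ddx58 (ENSMUSG00000040296, chromosome 4 from 40203773 to 40239828), which encodes the RNA sensor RIG-I, measured 198, 176 and 147 CPM in Cre– controls and 66.6, 99.6 and 118 CPM in PTEC DN RAR mice. Its change of -0.88 ± 0.20 on the log2 scale (SE, adjusted p = 0.00866 by edgeR) held in each of the 13 alternative fits. Dhx58, which encodes LGP2, a regulator of the other sensors, measured 169, 140 and 117 CPM in Cre– controls and 54.9, 73.4 and 99.6 CPM in PTEC DN RAR mice, with a change of -0.90 ± 0.21 on the log2 scale (SE, adjusted p = 0.0101 by edgeR), and also held in each. Ifih1, which encodes MDA5, the sensor of long double-stranded RNA, measured 122, 129 and 105 CPM in Cre– controls and 59.8, 91.5 and 89.4 CPM in PTEC DN RAR mice. Ifih1 had a change of -0.57 ± 0.16 on the log2 scale (SE, adjusted p = 0.0225 by edgeR). Ddx60, a helicase of the same broad family, measured 36.8, 40.9 and 30.6 CPM in Cre– controls and 12.2, 20.6 and 26.3 CPM in PTEC DN RAR mice and had a change of -0.87 ± 0.25 on the log2 scale (SE, adjusted p = 0.0219 by edgeR). Both lost the call without Cre– control replicate 2 (ranges 0.00351 to 0.161 and 0.00174 to 0.0884). Trim25 (ENSMUSG00000000275, chromosome 11 from 88999376 to 89020293), a ubiquitin ligase that acts on RIG-I, measured 256, 236 and 257 CPM in Cre– controls and 168, 188 and 204 CPM in PTEC DN RAR mice. The change of Trim25 was small but its libraries lay close together within each group, giving a change of -0.42 ± 0.10 on the log2 scale (SE, adjusted p = 0.00912 by edgeR). Zbp1, which senses Z-form nucleic acids and can trigger necroptosis, measured 278, 207 and 166 CPM in Cre– controls and 86.5, 132 and 158 CPM in PTEC DN RAR mice. It fell by 0.79 on the log2 scale (standard error 0.24, adjusted p = 0.028 by edgeR), and the call was lost without Cre– control replicate 1 or PTEC DN RAR replicate 1 or 2 (range 0.00259 to 0.107). Eif2ak2, which encodes the kinase PKR that stops translation, measured 69.5, 77 and 79.9 CPM in Cre– controls and 36.4, 62.6 and 59.8 CPM in PTEC DN RAR mice, without overlap but with a change of -0.51 ± 0.18 on the log2 scale (SE, adjusted p = 0.0538 by edgeR). It passed without PTEC DN RAR replicate 2 or 3.

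Of 7 genes listed as effectors on viruses or nucleotides, 2 fell, where 17.1% of all genes tested did. These 2 lie beside each other on chromosome 12. Rsad2 (ENSMUSG00000020641, chromosome 12 from 26442746 to 26456452), which encodes viperin, the enzyme that makes a chain-terminating nucleotide, measured 145, 128 and 104 CPM in Cre– controls and 37.7, 70.1 and 93.6 CPM in PTEC DN RAR mice and had a change of -0.90 ± 0.28 on the log2 scale (SE, adjusted p = 0.0319 by edgeR). Cmpk2, the mitochondrial nucleotide kinase that lies 12751 bases from Rsad2 on the opposite strand, measured 80, 72.4 and 52.7 CPM in Cre– controls and 27.3, 42.7 and 53.3 CPM in PTEC DN RAR mice. The 2 groups touched in Cmpk2, where PTEC DN RAR replicate 3 was above Cre– control replicate 3, and its change was -0.73 ± 0.24 on the log2 scale (SE, adjusted p = 0.0358 by edgeR). The call of Cmpk2 was lost without Cre– control replicate 1 or 2 or PTEC DN RAR replicate 1 or 2 (range 0.00602 to 0.148), at log2 fold changes from -0.76 to -0.51. That of Rsad2 was lost without Cre– control replicate 1 or 2 or PTEC DN RAR replicate 2 (range 0.00295 to 0.107). Mx1, a dynamin-like GTPase gene, measured 85.7, 77.4 and 56.7 CPM in Cre– controls and 28, 55.8 and 74.7 CPM in PTEC DN RAR mice. In Mx1, PTEC DN RAR replicate 3 was above Cre– control replicate 3. Its change of -0.47 ± 0.31 on the log2 scale (SE, adjusted p = 0.248 by edgeR) did not pass in any alternative fit. Mx2, annotated in GENCODE M21 as a polymorphic pseudogene, had a log2 fold change of -0.27 that turned to 0.05 without PTEC DN RAR replicate 1. Bst2, or tetherin, which holds budding virus at the cell surface, measured 240, 181 and 160 CPM in Cre– controls and 134, 169 and 167 CPM in PTEC DN RAR mice with overlap and a change of -0.31 ± 0.16 on the log2 scale (SE, adjusted p = 0.15 by edgeR). The exonuclease gene Isg20 stood at -0.40 (adjusted p = 0.201 by edgeR). Samd9l, an antiviral factor, measured 93.3, 107 and 92.7 CPM against 44.9, 72.9 and 82.2 CPM, with no overlap and a change of -0.55 ± 0.19 on the log2 scale (SE, adjusted p = 0.051 by edgeR), and passed without PTEC DN RAR replicate 3.

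Parp9, Parp14 and Dtx3l lie in 1 stretch of chromosome 16, and Parp12 on chromosome 6. All 4 fell (17.1% of all genes tested did), in a narrow range from -0.74 to -0.62. Their median SD within genotypes was 0.23 against 0.36 over all members. Dtx3l (ENSMUSG00000049502, chromosome 16 from 35926511 to 35939151), a ubiquitin ligase, measured 197, 195 and 170 CPM in Cre– controls and 95.6, 118 and 132 CPM in PTEC DN RAR mice. Its change of -0.70 ± 0.13 on the log2 scale (SE, adjusted p = 0.00345 by edgeR) had the lowest adjusted p of the 40 members and held in each alternative fit. Parp9, the partner with which Dtx3l forms a complex, measured 118, 123 and 105 CPM in Cre– controls and 57.2, 75.3 and 85.7 CPM in PTEC DN RAR mice, a change of -0.66 ± 0.14 on the log2 scale (SE, adjusted p = 0.0074 by edgeR). Exons of Parp9 and Dtx3l overlap on opposite strands over 458 bases, and the strand setting of the counting is not stated, so reads there cannot be assigned to 1 of them. The mono-ADP-ribosyltransferase Parp14 (ENSMUSG00000034422, chromosome 16 from 35832874 to 35871544), measured 335, 342 and 351 CPM in Cre– controls and 143, 239 and 232 CPM in PTEC DN RAR mice, with means of 343 ± 8.15 CPM for Cre– controls and 205 ± 54 CPM for PTEC DN RAR (SD over 3 mice each). Parp14 had a change of -0.74 ± 0.18 on the log2 scale (SE, adjusted p = 0.011 by edgeR). Parp12, an enzyme of the same kind, measured 204, 195 and 162 CPM in Cre– controls and 99.7, 120 and 145 CPM in PTEC DN RAR mice, a change of -0.62 ± 0.15 on the log2 scale (SE, adjusted p = 0.0107 by edgeR). All 4 passed with each mouse left out, and Parp9, Parp12 and Parp14 did not pass when libraries were scaled on pan-leukocyte genes (adjusted p up to 0.102).

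Of the 9 remaining members, 6 fell, where 17.1% of all genes tested did. Rtp4 (ENSMUSG00000033355, chromosome 16 from 23520291 to 23614222), a transporter of receptors to the cell surface that also restrains interferon signaling, measured 164, 130 and 116 CPM in Cre– controls and 44.7, 62.8 and 80.3 CPM in PTEC DN RAR mice, a change of -1.13 ± 0.21 on the log2 scale (SE, adjusted p = 0.00372 by edgeR). Trim30a, a ubiquitin ligase that dampens Toll-like receptor signaling, measured 340, 332 and 304 CPM in Cre– controls and 123, 185 and 205 CPM in PTEC DN RAR mice, a change of -0.93 ± 0.17 on the log2 scale (SE, adjusted p = 0.00379 by edgeR). In both genes every control lay well above the highest PTEC DN RAR library, and both passed in each alternative fit. Part of Rtp4 overlaps the gene model Gm45338 on the same strand. Sp100, a component of nuclear bodies, measured 422, 355 and 313 CPM in Cre– controls and 159, 228 and 252 CPM in PTEC DN RAR mice, a change of -0.77 ± 0.18 on the log2 scale (SE, adjusted p = 0.00939 by edgeR), and passed with each mouse left out. Xaf1, which promotes cell death, measured 75, 61.4 and 49.4 CPM in Cre– controls and 25.4, 42.2 and 46 CPM in PTEC DN RAR mice, a change of -0.71 ± 0.22 on the log2 scale (SE, adjusted p = 0.0335 by edgeR). The adaptor gene Ifi35 measured 73.5, 56.6 and 54.4 CPM in Cre– controls and 36.8, 42.4 and 49.7 CPM in PTEC DN RAR mice, a change of -0.52 ± 0.15 on the log2 scale (SE, adjusted p = 0.0219 by edgeR). Ifi27l2a (ENSMUSG00000079017, chromosome 12 from 103442167 to 103443680), a small mitochondrial protein gene, measured 625, 396 and 356 CPM in Cre– controls and 292, 281 and 337 CPM in PTEC DN RAR mice, where Cre– control replicate 1 stood well above the other controls. It had a change of -0.60 ± 0.20 on the log2 scale (SE, adjusted p = 0.0397 by edgeR). Xaf1 lost its call without Cre– control replicate 1 or 2 or PTEC DN RAR replicate 1, Ifi35 without PTEC DN RAR replicate 1 or 2, and Ifi27l2a without Cre– control replicate 1 or PTEC DN RAR replicate 1 or 2 (ranges 0.00546 to 0.142, 0.00454 to 0.201 and 0.00635 to 0.156). Ifi44, Fam26f and Phf11b did not pass in the fit reported or in any alternative, with log2 fold changes of -0.13, -0.09 and -0.27. Ifi44 departed from the other members, at 53.5, 37.8 and 24.3 CPM against 15.8, 60.1 and 30.1 CPM, with its highest value of the 6 libraries in PTEC DN RAR replicate 2. Phf11b shares 47.0% of its 50-base stretches, most of them with Phf11a.

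Levels of different genes can be compared only per length, as mean CPM per kilobase of annotated exon. On that scale Ifi27l2a was highest, at 991 in Cre– controls and 654 in PTEC DN RAR mice, followed by Bst2 at 215 and 174. Isg15 came next in Cre– controls, at 127, whereas in PTEC DN RAR mice Phf11b at 65.1 stood above Isg15 at 56.1. Mx2 at 4.12 and 3.40, Ddx60 at 4.16 and 2.27 and Herc6 at 4.80 and 2.71 were lowest. In Cre– controls Ifit3 stood above Ifit3b, at 56.7 against 8.85, and Oas1a above Oas1g, at 68.4 against 13.8, levels that may lack shared reads. Neighbours in the genome had like changes in some places, as in Dtx3l and Parp9 at -0.70 and -0.66, and unlike changes in others, as in Oas2 and Oas3, 3244 bases apart, at -0.28 and -0.88 (a difference between the 2 genes that was not tested).

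Of the 40 members, 11 are also listed in the gene sets for macrophages stimulated with LPS and IFN-γ that the study tested, Ifit1, Ifit2, Isg15, Mx1, Rsad2, Ddx58, Ddx60, Herc6, Xaf1, Ifi44 and Fam26f. Of these 7 fell, with a median log2 fold change of -0.87, and of the 29 members outside those sets 17 fell, with a median of -0.66. Over all genes tested 17.1% fell, with a median of 0.04. The difference between members inside and outside those sets was not tested.

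Upstream of the members, the ligands were near or at 0. Ifnb1, the gene for interferon-β, had 6, 5 and 1 reads in Cre– controls and 4, 9 and 14 reads in PTEC DN RAR mice, under the filter on low counts. Of the 16 other ligand genes listed, 15 had 0 reads in all 6 libraries, and Ifna4 had 1 read in Cre– control replicate 1. With 0 reads a level of up to 0.0636 to 0.101 CPM is allowed by counting error, for reads aligned to 1 place. Many of these genes are near copies of each other, and reads aligned to more than 1 place were not counted. The receptor chains did not pass, with Ifnar1 at 173, 179 and 198 CPM against 204, 197 and 165 CPM and a change of 0.04 ± 0.11 on the log2 scale (SE, adjusted p = 0.765 by edgeR), and Ifnar2 at 155, 150 and 157 CPM against 150, 143 and 136 CPM and a change of -0.11 ± 0.08 on the log2 scale (SE, adjusted p = 0.298 by edgeR).

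Of the 7 genes of the receptor and its transducers, 3 fell and 0 rose, where 17.1% and 23.6% of all genes did. Irf9, the DNA-binding part of the complex, measured 147, 132 and 123 CPM in Cre– controls and 99.4, 104 and 99.6 CPM in PTEC DN RAR mice, a change of -0.40 ± 0.09 on the log2 scale (SE, adjusted p = 0.0079 by edgeR). Stat2 measured 241, 211 and 170 CPM in Cre– controls and 94.7, 153 and 158 CPM in PTEC DN RAR mice, a change of -0.61 ± 0.20 on the log2 scale (SE, adjusted p = 0.0377 by edgeR). The call of Stat2 was lost without Cre– control replicate 1 or 2 or PTEC DN RAR replicate 1. The kinase gene Jak1 measured 392, 403 and 419 CPM against 353, 347 and 308 CPM, a change of -0.27 ± 0.09 on the log2 scale (SE, adjusted p = 0.0405 by edgeR). The call of Jak1 was lost, with its sign kept, without each library in turn except Cre– control replicate 1. When libraries were scaled on pan-leukocyte genes, 0 of these 7 passed as lower, against 5.11% of all genes.

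Of 14 genes that lead to interferon production, 5 fell and 0 rose, beside 17.1% and 23.6% of all genes. Ikbke and Tbk1, kinases that activate Irf3 and Irf7, measured 58.8, 56.5 and 69 CPM against 31.3, 29.7 and 27.6 CPM (log2 fold change -1.06, adjusted p = 0.000305 by edgeR) and 52.2, 57.8 and 59.3 CPM against 33.5, 38.7 and 39.1 CPM (-0.60, adjusted p = 0.00198). Mb21d1, the DNA sensor cGAS, measured 24.5, 27.5 and 26.7 CPM in Cre– controls and 14.9, 19.1 and 15.4 CPM in PTEC DN RAR mice, a change of -0.67 ± 0.12 on the log2 scale (SE, adjusted p = 0.0037 by edgeR). In these 3 genes the libraries of each genotype lay close together, and each passed in all alternative fits. The endosomal receptor Tlr7 and the adaptor Myd88 fell by 0.47 and 0.37 on the log2 scale (adjusted p = 0.00686 and 0.00527 by edgeR). Both lost the call when libraries were scaled on pan-leukocyte genes. Irf7, the interferon-induced factor that amplifies the response, measured 586, 348 and 314 CPM in Cre– controls and 203, 291 and 436 CPM in PTEC DN RAR mice. In Irf7 the groups overlapped, with PTEC DN RAR replicate 3 above Cre– control replicates 2 and 3, and its change of -0.42 ± 0.30 on the log2 scale (SE, adjusted p = 0.286 by edgeR) did not pass. Of the others, Irf3, Irf5, Mavs, Tmem173, Tlr3, Tlr9, Ticam1 and Traf3 did not pass, with log2 fold changes from -0.31 to 0.19.

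Of 10 listed brakes on the pathway, 9 were tested and 5 fell and 0 rose, with the same shares of all genes. Socs3 measured 837, 696 and 604 CPM in Cre– controls and 398, 313 and 412 CPM in PTEC DN RAR mice, a change of -0.93 ± 0.15 on the log2 scale (SE, adjusted p = 0.00212 by edgeR) that held in each alternative fit. Adar, which edits double-stranded RNA so that it is not sensed, and Samhd1, which depletes nucleotides, fell by 0.53 and 0.48 on the log2 scale (adjusted p = 0.0122 and 0.0118 by edgeR). Pias1 and Irf2 fell by 0.40 and 0.26 (adjusted p = 0.00572 and 0.036 by edgeR), and the call of Irf2 was lost without Cre– control replicate 1 or 2 or PTEC DN RAR replicate 1 or 3. Adar, Samhd1, Pias1 and Irf2 did not pass when libraries were scaled on pan-leukocyte genes. Trex1 had 0 reads in all libraries, and its exons lie entirely within those of Atrip, so that its reads may have been left out as ambiguous. Over the 4 lists, 13 of 30 tested genes fell and 0 rose, against 17.1% and 23.6% of all genes, with a median log2 fold change of -0.29. At an unadjusted p under 0.05 by edgeR, 17 were lower and 0 higher, against 22% and 28.1% of all genes. The adjusted count was 4 lower and 1 higher (Traf3) when libraries were scaled on pan-leukocyte genes. Of the 6 genes for interferon-γ, its receptor and its factors, Ifng had at most 2 reads in a library, Jak2 fell (-0.27, adjusted p = 0.0424 by edgeR) and Ciita, which drives MHC class II genes, rose, at 184, 228 and 181 CPM against 358, 361 and 290 CPM (log2 fold change 0.77, adjusted p = 0.0023 by edgeR). The call of Jak2 was lost without each library in turn except Cre– control replicate 1, with pan-leukocyte or library size scaling, and with the stricter filter on low counts.

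**Figure D3:**
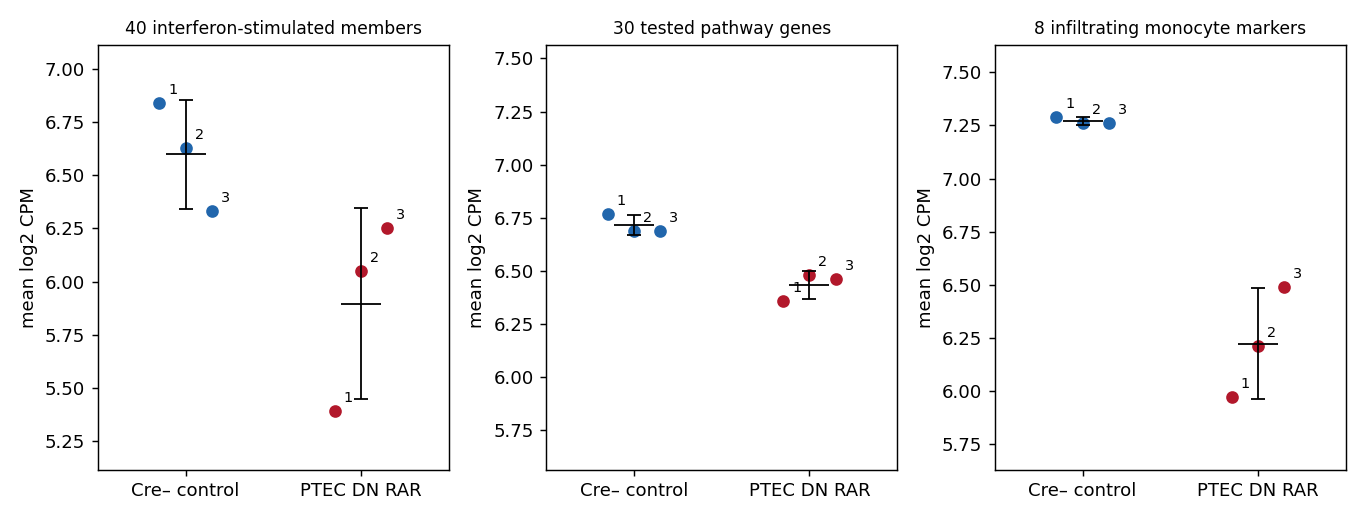
Mean log2 CPM per library over the 40 members, the 30 tested pathway genes and 8 infiltrating monocyte markers, with 1 numbered point per mouse and bars for the mean ± SD of 3 mice; each axis spans 2 log2 units. The members run from 6.33 to 6.84 for Cre– controls and from 5.39 to 6.25 for PTEC DN RAR, while the monocyte markers run from 7.26 to 7.29 and from 5.97 to 6.49.

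Other cell types in the bead fraction were followed by marker lists. Of 8 markers of infiltrating monocytes, 6 fell (17.1% of all genes did), among them Ccr2, Plac8, Chil3, Vcan and F13a1, and the summed level of the 8 was 2450 to 2690 CPM in Cre– controls and 1210 to 1380 CPM in PTEC DN RAR mice. Their mean log2 CPM was 7.29, 7.26 and 7.26 in Cre– control replicates 1, 2 and 3 and 5.97, 6.21 and 6.49 in PTEC DN RAR replicates 1, 2 and 3. That mean combines markers that did not share 1 order of libraries. Plac8, at 319, 223 and 209 CPM against 110, 138 and 184 CPM, and Ly6c2, at 65.2, 47.7 and 34.2 CPM against 13.5, 24 and 41.5 CPM, stood in the order of the members' mean in both genotypes, whereas Ccr2, at 1290, 1250 and 1330 CPM against 786, 791 and 764 CPM, and F13a1, at 586, 511 and 722 CPM against 118, 104 and 136 CPM, did not. In Ly6c2 the groups overlapped and it did not pass. Of 10 neutrophil markers 5 fell, and their summed level was 471 to 849 CPM against 299 to 426 CPM. Of 9 markers of resident macrophages 2 rose, Cd81 and Cd74, a share near the 23.6% of all genes that rose, and the summed level was 26300 to 31700 CPM against 34100 to 47600 CPM. Without Cd74 the sums overlapped, at 16300 to 21100 CPM against 18500 to 23900 CPM. Of 7 tested markers of plasmacytoid dendritic cells, a known source of interferon, 2 rose, Siglech and Smim5, again a share near that of all genes. Their summed level was 29.3 to 43.3 CPM in the controls and 48 to 54.7 CPM in the PTEC DN RAR libraries, mostly from Il3ra at 33.7, 23.6 and 23.9 CPM against 37.9, 32.9 and 29.4 CPM, and Siglech stood at 0.692, 0.369 and 0.443 CPM against 1.27, 1.74 and 0.763 CPM. None of the 8 listed was at 0 in all libraries. T cell markers summed to 1.14 to 1.61 CPM against 1.80 to 5.42 CPM, and Trac and Cd5 rose. B cell markers summed to 23.5 to 30.9 CPM against 33.1 to 49.8 CPM, mostly from Cd79b, which rose. NK cell markers summed to 2.66 to 8.45 CPM against 1.98 to 5.59 CPM, with overlap, and 0 of 4 tested passed by edgeR. The part of these cell types in the difference of the members was not tested.

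**Figure D4:**
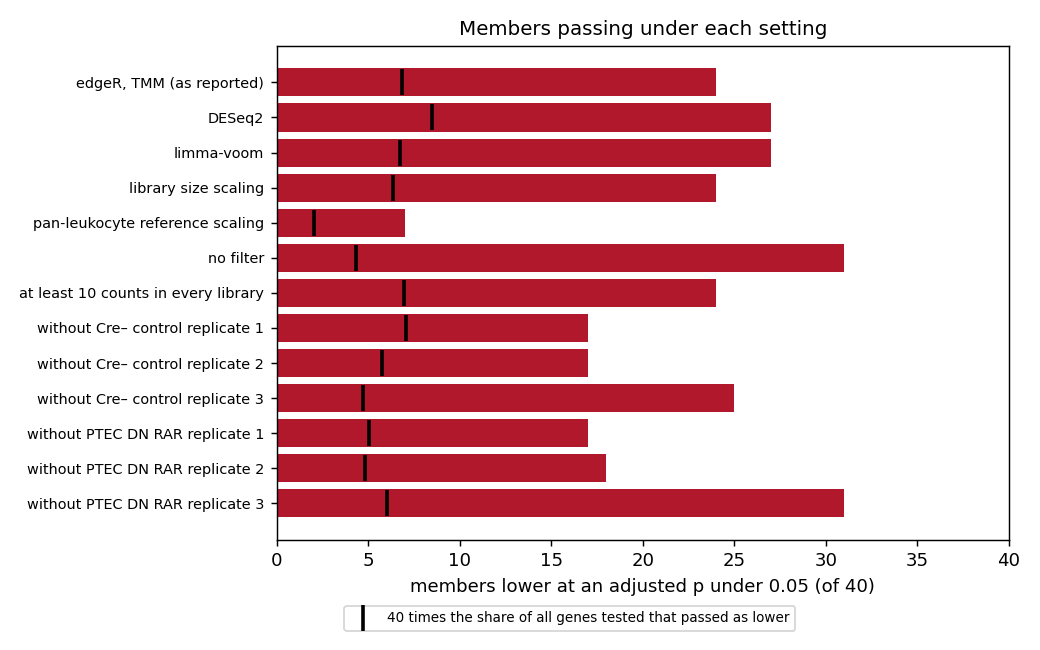
Number of the 40 members with lower counts under PTEC DN RAR at an adjusted p under 0.05 in the fit reported and in the alternatives, as bars, with a black tick at the number that the share of all genes tested would give. The count is 24 in the fit reported, lowest at 7 with pan-leukocyte scaling and highest at 31 without the filter on low counts or without PTEC DN RAR replicate 3.

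With each mouse left out in turn, the number of members that fell was 17 without Cre– control replicate 1 or 2 or PTEC DN RAR replicate 1, 18 without PTEC DN RAR replicate 2, 25 without Cre– control replicate 3 and 31 without PTEC DN RAR replicate 3. The share of all genes that fell in those fits was between 11.7% and 17.7%. The 13 members that passed in all 6 of these fits were Isg15, Herc6, Oasl2, Ddx58, Dhx58, Trim25, Parp9, Parp12, Parp14, Dtx3l, Rtp4, Trim30a and Sp100. DESeq2 and limma-voom each called 27 members lower and 0 higher. Oas2, Mx1, Mx2, Isg20, Bst2, Ifi44, Fam26f and Phf11b did not pass in any fit.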

How the data were processed

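RNA of CD11B+ kidney cells from 6 mice was sequenced, 1 library per mouse. The authors deposited raw read counts per Ensembl gene. The submitters' processing notes name STAR 2.5.0a, HTSeq 0.6.1 and build GRCm38, and also edgeR and limma. Annotation and strand setting are not given in the sources used here. Reads aligned to more than 1 place were not counted on genes. The count that HTSeq lists as alignment not unique was 42.9% to 47.8% of its sum with the counts on genes, ambiguous and without a feature. Unaligned reads were not in that sum.

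From the deposited counts, 9 repeated identifiers were collapsed, which left 46603 genes. Genotypes, 3 against 3, were compared with edgeR 4.0.16 (R 4.3.3): filterByExpr, TMM and the quasi-likelihood test over 15440 genes, with Benjamini-Hochberg adjustment and a threshold of 0.05. Log2 CPM used a prior count of 2. P-values measure the spread between these mice. Alternatives were DESeq2 1.42.0, limma-voom (limma 3.58.1), other scalings and filters, and leaving out each mouse. The code was tested on simulated data. No libraries were duplicates by a chi-square comparison of counts. Counting intervals and floors (3 reads) cover counting error only.

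Members and lists were chosen with earlier results of these data known. Values are given in every library for each member at an adjusted p under 0.05, the member with the highest CPM of each role group, and Mx1, Isg15 and Rsad2. Other members are given by log2 fold change or range. A few of them are also shown per library, chosen after their values were seen. From the pathway lists, genes at an adjusted p under 0.05 are named, with Ifnb1, Ifnar1, Ifnar2, Stat2, Irf9 and Irf7. Some listed genes are not reported here by name. Positions are from GENCODE M21 and promoter windows from RefSeq (GRCm38.p6).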

Additional observations from a re-analysis of the deposited data

How the results depend on the processing

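With scaling on pan-leukocyte genes, 789 genes of all tested were lower and 4561 higher, 7 members were lower and 0 higher, and 4 pathway genes were lower and 1 higher. The cause was not tested. With each mouse left out in turn, 1874 to 2824 of all genes were lower and 2433 to 3699 higher, 17 to 31 members were lower and 0 higher, and 10 to 14 pathway genes were lower and 0 higher. In those fits the median log2 fold change of the members ran from -0.90 to -0.51 and the difference in their mean log2 CPM from -0.92 to -0.45. By role it ran from -1.26 to -0.51 for IFIT, -1.13 to -0.64 for ISG15 conjugation, -1.02 to -0.49 for OAS, -1.03 to -0.58 for sensors and their regulators, -0.77 to -0.21 for effectors, -0.85 to -0.53 for PARP and DTX3L and -0.80 to -0.37 for the others. DESeq2, limma-voom, library size scaling, the absence of a filter and a minimum of 10 counts gave between 24 and 31 members lower and 0 higher. With the replicate number as a block, 19 members were lower and 0 higher. Whether same-numbered mice were paired is not known. Deviations of same-numbered libraries correlated at -0.01, 0.21 and 0.03 over genes and at -0.25, 0.43 and -0.29 over members. Not every library correlated best with its own number, and 3 mice a group are too few to decide. All 40 members passed the filter, so that taking all detected members changed nothing. In 37 of 40 members the log2 fold change was negative in every alternative, the exceptions being Mx2, Ifi44 and Fam26f. With 3 mice a group, an exact permutation test of a single value cannot go below 0.1.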
